A study of Drosophila melanogaster with 54 samples.

Results

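Binding of Labial (Lab), the most anterior of the 8 Drosophila Hox proteins, was mapped by ChIP-seq in Kc167 cells, a line of embryonic origin with features of haemocytes, with and without the cofactor Homothorax (Hth). The regions described here are the 2 lists of Lab that passed the main threshold of q 0.01, 4822 regions for Lab+Hth and 3829 for Lab alone, 8651 of the 116680 regions in the lists of all 18 groups. A Lab+Hth region that overlapped no Lab region by at least 1 bp was called gained, a Lab+Hth region that did was called common, and a Lab region that overlapped no Lab+Hth region was called lost. This gave 1827 gained, 2995 common and 722 lost regions, and these classes were then compared in width, position, sequence, nearby genes and overlap with the lists of Hth, of Extradenticle (Exd) with Hth, and of the other 7 Hox proteins.

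In the Lab+Hth group, Kc167 cells carried a plasmid from which Hth and GFP-tagged Lab were made as separate proteins from 1 transcript. In the Lab group the plasmid encoded only the GFP-tagged Lab. In both groups the metallothionein promoter drove expression after transient transfection, and copper sulphate was given at 1 mM for 4 h. Cells were then fixed in 1% formaldehyde for 10 min at 23 °C and sorted for GFP. Binding was thus that of a tagged and newly induced protein. Lab carried its tag at the C-terminus. Each group had 2 ChIP libraries made with an antibody against GFP, but each deposited list combines both libraries, and values therefore carry no error between replicates. The 95% Wilson intervals given with shares cover the counting of regions only. The lists hold no heights, read counts or scores. Sequencing depth is not in them, and 1 of the Lab+Hth libraries had fewer mapped reads than the other libraries of these groups in the study's supplement; the part of depth in the differences below was not tested. The lists hold no measure of how much Lab, Hth or Exd the cells contained. The study's methods say that all sorts were gated on the same range of GFP fluorescence. This set the range of tagged Lab in both groups, but not that of Hth or Exd.

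Hox proteins bind short AT-rich sequences that are alike for the whole family. Exd and Hth are homeodomain proteins of the TALE class. Hth binds Exd and brings it into the nucleus, and Exd forms a dimer with a Hox protein on a composite site whose central bases differ between Hox proteins. Of the pair, Hth is the partner missing in Kc167 cells. Lab acts in the head and, in the midgut, in the copper cells, and it is known for depending on Exd and Hth at its own autoregulatory enhancer. The composite sites best known for Lab with Exd are TGATGGAT and TGATTGAT, called Lab-type sites here, and a site of Hth itself is TGACAG. Matches were sought on both strands, and neighbouring matches could share bases.

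Gained regions with a Lab-type site included regions found in no other list of the series. By a rule set on the lists (in the Lab+Hth list at q 1e-10, and in no list of another Hox protein, Hth or Exd+Hth), 44 gained regions qualified and 15 of them (34.1%) had a Lab-type site in the central 200 bp. That share lay between 29.3% for all 529 gained regions in the q 1e-10 list and 42.5% for all 181 gained regions in no other list. The 100 bases around the site are shown for 4 of those 15, as sequences listed for Lab with Hth and for no other group. Capitals mark Lab-type sites, and a site on the opposite strand reads ATCAATCA. The sequences are those of the plus strand of dm6 from the RefSeq Release 6 genome.
Nha1, chr2L:6868598-6868697: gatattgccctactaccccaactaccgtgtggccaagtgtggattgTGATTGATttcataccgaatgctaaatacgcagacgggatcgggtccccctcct
Ork1, chrX:10883316-10883415: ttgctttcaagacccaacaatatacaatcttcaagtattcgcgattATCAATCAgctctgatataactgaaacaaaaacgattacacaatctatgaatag
CG15395, chr2L:2611364-2611463: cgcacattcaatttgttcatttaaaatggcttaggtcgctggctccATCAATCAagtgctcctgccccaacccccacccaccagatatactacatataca
DAAM, chrX:1297107-1297206: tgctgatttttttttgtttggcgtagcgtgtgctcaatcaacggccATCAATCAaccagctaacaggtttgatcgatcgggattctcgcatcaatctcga

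The regions around these sequences were 825 bp wide at Nha1, 687 bp at Ork1, 645 bp at CG15395 and 621 bp at DAAM. Nha1 encodes a sodium/proton exchanger, Ork1 a potassium leak channel and DAAM a formin that assembles actin. The centres at Nha1, Ork1 and DAAM fell in introns, and the region assigned to CG15395 was intergenic, 1507 bp from the nearest protein-coding start site, which is that of CG15395. All 4 windows held 1 site each, and in all 4 it was TGATTGAT. None of the 4 windows held TGACAG.

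More sites stood close together at nkd, which encodes naked cuticle, an inhibitor of Wnt signalling. The nkd gene (FBgn0002945, 3L 19003741 to 19045449) had 5 Lab+Hth regions within 1 kb and no Lab region, and 3 of the 5 had a Lab-type site in the central 200 bp. The windows are shown because they hold 1, 2 and 3 such sites, the last as a run of overlapping matches.
nkd region with 2 sites, chr3L:19025696-19025795: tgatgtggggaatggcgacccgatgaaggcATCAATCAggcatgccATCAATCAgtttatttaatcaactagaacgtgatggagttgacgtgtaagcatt
nkd region with 1 site, chr3L:19031485-19031584: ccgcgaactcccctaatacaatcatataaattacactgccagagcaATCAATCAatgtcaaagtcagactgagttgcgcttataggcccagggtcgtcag
nkd region with 3 sites, chr3L:19032633-19032732: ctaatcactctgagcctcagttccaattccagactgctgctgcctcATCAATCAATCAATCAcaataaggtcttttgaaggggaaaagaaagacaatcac

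The nkd regions with 2 and with 3 sites were narrow, 319 bp and 302 bp, and were in no other list of the series. Neither of them was in the Lab+Hth list at q 1e-10. The nkd region with 1 site was 1184 bp wide, was in the Lab+Hth list at q 1e-10, and overlapped regions of Pb+Hth, Dfd+Hth, Scr+Hth and Antp+Hth, but none of the Hox proteins alone. All 5 regions at nkd lay in introns.

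More regions were gained than lost with Hth. Of the Lab+Hth regions, 37.9% (36.5 to 39.3) were gained, and of the Lab regions, 18.9% (17.6 to 20.1) were lost, 2.53 gained regions for each lost one. At the stricter threshold of q 1e-10, the lists held 2323 Lab+Hth and 1701 Lab regions, with 998 gained, 1325 common and 354 lost, or 2.82 gained for each lost. A region can be called gained or lost because it lies just past the threshold in 1 list and just short of it in the other. Of the 998 regions gained at q 1e-10, 416 (41.7%) overlapped a Lab region at q 0.01, and of the 354 lost at q 1e-10, 302 (85.3%) overlapped a Lab+Hth region at q 0.01. When a region had to be present at q 1e-10 in 1 condition and absent at q 0.01 in the other, 582 were gained and 52 were lost, 11.2 gained for each lost. The counts of gained and lost regions thus moved by more than 1.5 times between definitions, and more regions were gained than lost in each.

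**Figure D1:**
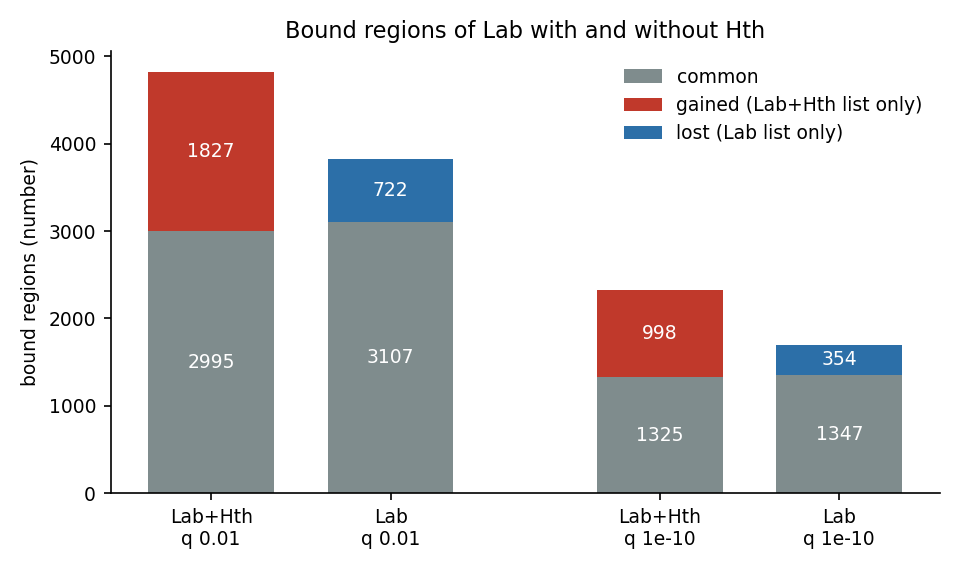
Numbers of bound regions (vertical axis) of Lab+Hth and of Lab alone at q 0.01 and at q 1e-10, divided into regions common to both conditions (grey) and regions gained (red) or lost (blue) with Hth. The gained part of the Lab+Hth bars, 1827 and 998, exceeds the lost part of the Lab bars, 722 and 354, at both thresholds.

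Gained regions were narrower than common ones and wider than lost ones. The median width was 394 bp for gained, 548 bp for common and 324 bp for lost regions, with interquartile ranges of 311 to 536 bp, 385 to 829 bp and 271 to 403 bp. Gained regions also reached the stricter list less often. Of the gained regions, 29.0% (26.9 to 31.1) overlapped a Lab+Hth region at q 1e-10, against 54.8% (53 to 56.6) of the common ones. Of the lost regions, 6.79% (5.17 to 8.86) overlapped a Lab region at q 1e-10, against 50.9% (49.1 to 52.6) of the Lab regions that were common. Among the 2814 common regions in which 1 region of each list overlapped 1 of the other, 1777 (63.1%) were wider with Hth and 1027 were narrower. Their median width was 532 bp with Hth and 471 bp without.

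The longest regions of each class lay in or near genes of different kinds. The longest gained region (2L 14556387 to 14559623, 3237 bp) lay 5721 bp from the nearest protein-coding start site, that of CG3473, over a noncoding exon. It overlapped regions of Exd+Hth and of 6 other Hox proteins with Hth, and of no Hox protein alone. Another of the longest lay in an intron of CG6006 (1796 bp) and overlapped 5 lists of other Hox proteins alone. The longest common regions lay in introns of NK7.1, a homeobox gene (3718 bp), of ct, the homeobox gene cut (3561 bp), and of pnt, the ETS factor gene pointed (3413 bp), and all 3 overlapped every one of the other lists. The longest lost regions were shorter. They lay near CG13309 (1297 bp) and in introns of alpha-Man-Ia, a mannosidase gene (1214 bp), and of HGTX, a homeobox gene (919 bp), and all 3 were in the Lab list at q 1e-10 and in neither the Hth nor the Exd+Hth list. The lost region at HGTX overlapped no region of another Hox protein, with or without Hth.

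Gained regions lay farther from start sites than common ones. Of the gained regions, 33.4% (31.3 to 35.6) were centred within 1 kb of an annotated transcription start site, against 41.2% (39.4 to 42.9) of common and 45.7% (42.1 to 49.4) of lost regions. The median distance was 1841 bp for gained, 1474 bp for common and 1248 bp for lost regions. Over all lists of the series merged, 46.3% of 16214 regions were centred within 1 kb of a start site. Most centres were in introns, with 60.9% (58.7 to 63.1) of gained, 60.9% (59.1 to 62.6) of common and 53% (49.4 to 56.7) of lost regions, against 49% of the merged regions. Intergenic centres made up 23.9%, 24.7% and 28.1% of gained, common and lost regions. Centres in a 5' UTR were found for 6.46% (5.42 to 7.68) of gained, 7.61% (6.72 to 8.62) of common and 11.9% (9.75 to 14.5) of lost regions. Coding exons held 1.48% of gained, 0.968% of common and 1.94% of lost centres.

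The lower share of gained regions near start sites was found for all 8 Hox proteins. The gained share minus the common share within 1 kb averaged -14.4 ± 6.30 percentage points (SD, n = 8 proteins) and was below 0 for each of them (two-sided exact permutation of the signs, p = 0.00781, which is the smallest p possible here, and adjusted p = 0.013 over 5 tests). With the q 1e-10 lists the mean was -6.57 points. Lab had -7.73 points, and the other 7 proteins averaged -15.3 ± 6.16 (SD, n = 7) with a range of -22.9 to -7.17. A test of Lab against the other 7 cannot reach 0.05 in this design (exact permutation test of which 1 of 8 is Lab, two-sided, p = 0.50 and adjusted p = 0.50, where the smallest possible p is 0.13). The 8 proteins are not replicates of a condition, and they share part of their gained regions. The p-values over proteins, here and below, therefore say only how alike the proteins were in a difference.

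Gained regions were spread over the chromosome arms. The gained share of Lab+Hth regions was 41.6% (38.5 to 44.8) on 2L, 39.4% on 3L, 37.3% on 3R, 36.1% on X and 35.0% (31.9 to 38.2) on 2R. None of the 7 Lab+Hth regions on the small arm 4 was gained (upper Wilson bound 35.4%), and 3 of the 10 Lab regions there were lost. The gap to the nearest Lab region had a median of 4.28 kb, with 22.2% (20.4 to 24.2) of gained regions within 1 kb and 53.6% (51.3 to 55.9) within 5 kb.

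Gained regions overlapped the Hth and Exd+Hth lists less often than common ones. The Hth list came from GFP-tagged Hth, and the Exd+Hth list from GFP-tagged Exd made together with Hth, both without a Hox protein. Kc167 cells make Exd themselves. The Hth list overlapped 28.9% (26.9 to 31.0) of gained, 54.9% (53.1 to 56.6) of common and 36.7% (33.3 to 40.3) of lost regions. Exd+Hth overlapped 62.6% (60.4 to 64.8) of gained, 78.3% (76.8 to 79.7) of common and 56.1% (52.5 to 59.7) of lost regions. Over all merged regions of the series the shares were 24.9% for Hth and 58.9% for Exd+Hth, slightly below those of gained regions. Nearly the whole Hth list lay within the Exd+Hth list, with 5351 of 5367 regions (99.7%) overlapping, and all 528 gained regions that overlapped Hth also overlapped Exd+Hth. A further 616 gained regions (33.7%) overlapped the Exd+Hth list but not the Hth list, and 683 (37.4%, 35.2 to 39.6) overlapped neither, as did 41% of the merged regions. The order therefore differed between the cofactor lists. Gained regions had the lowest share with Hth, and lost regions had the lowest share with Exd+Hth. The Exd+Hth list is the longer one, with 10404 regions against 5367 for Hth. The paper ascribes much of the apparent Exd binding in less accessible chromatin to weaker peaks that passed because that ChIP had a low background. The part of this in the order was not tested.

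The same held for the other Hox proteins. Each of their 14 lists overlapped a smaller share of gained than of common Lab regions. Common regions were also wider, with a median of 548 bp against 394 bp. The part of width in these overlaps, and in those with Hth and Exd+Hth, was not tested. With Hth, Dfd overlapped 79.6% of gained and 97.2% of common regions, Pb 46.6% and 83.2%, Scr 51.1% and 76.2%, AbdB 51.4% and 77.7%, AbdA 38.4% and 65.0%, Ubx 33.5% and 60.6%, and Antp 27.9% and 51.4%. Without Hth, the shares ran between 19.8% for Antp and for Ubx and 48.3% for Dfd among gained regions, and reached 88.9% for Dfd among common regions, with the lowest common share for Ubx (1497 of 2995 regions). The difference was widest for Pb alone, with 33.2% (31.0 to 35.4) of gained and 84.9% (83.5 to 86.1) of common regions. Of the merged regions of the series, which include the lists themselves, Dfd+Hth overlapped 68.4%, Pb+Hth 28.1%, Scr+Hth 34.1%, AbdB+Hth 45.8%, AbdA+Hth 29.9%, Ubx+Hth 25.8% and Antp+Hth 14.5%, each less than of the gained regions. Antp alone overlapped 19.8% of gained and 17% of merged regions, Ubx alone 19.8% and 17.9%, AbdB alone 48% and 49.8%, and Dfd alone 48.3% and 41%. The lists differ in length, with 12050 regions for Dfd+Hth and 2880 for Antp+Hth. The part of length in these shares was not tested.

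**Figure D2:**
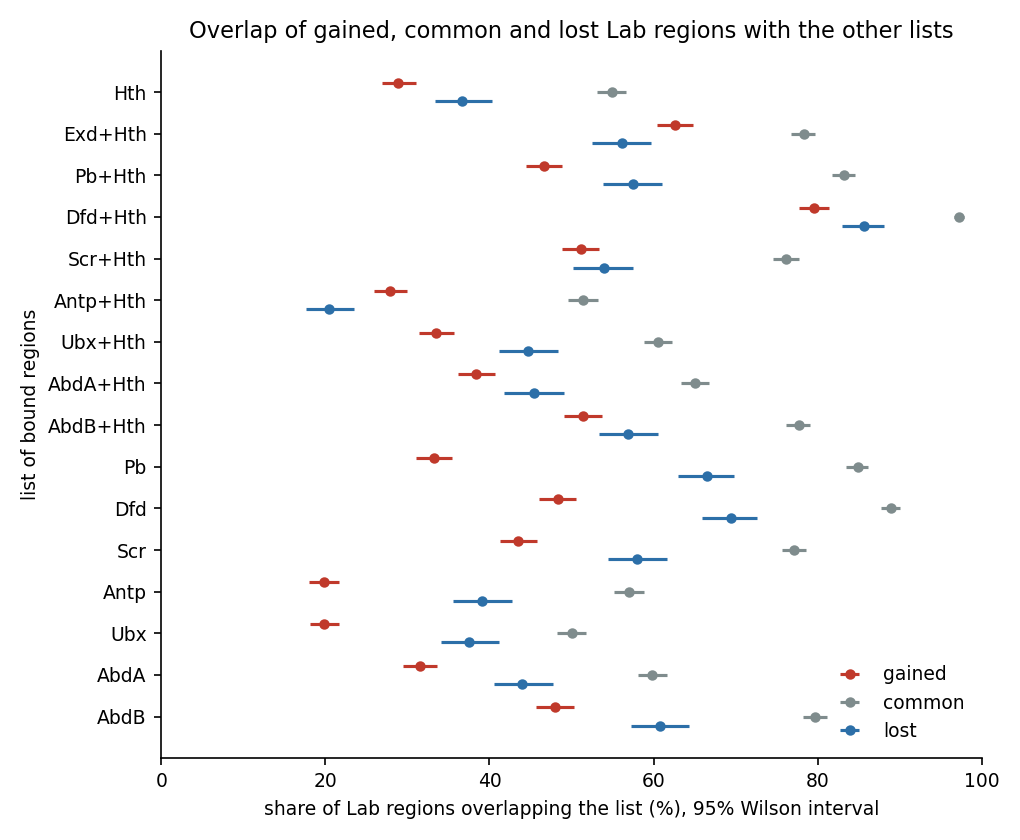
Share of gained (red), common (grey) and lost (blue) Lab regions (horizontal axis, percent, bars are 95% Wilson intervals) that overlapped each other list (rows). In every row the gained share lies below the common share, for example 28.9% against 54.9% for Hth and 62.6% against 78.3% for Exd+Hth.

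A larger share of gained than of common regions was bound by few other Hox proteins. Of the gained regions, 260 (14.2%, 12.7 to 15.9) overlapped none of the other 7 Hox+Hth lists and 234 (12.8%) overlapped all 7, whereas 42 (1.40%, 1.04 to 1.89) of the common regions overlapped none and 1206 (40.3%) overlapped all 7. Among lost regions, 55 (7.62%) overlapped none and 94 (13.0%) all 7. For the lists without Hth, 670 gained regions (36.7%, 34.5 to 38.9) overlapped none, against 106 (3.54%) of common and 74 (10.2%) of lost regions. Common and lost regions are by definition bound by Lab without Hth, and gained regions are not. The shares overlapping none or all of the lists were not computed over the merged regions, so their background is not known. Conversely, 1157 gained regions (63.3%) were bound without Hth by at least 1 other Hox protein. A region could also be gained by several proteins, that is, be in a protein's list with Hth and not in its list without. Dfd had also gained 573 of the Lab gained regions (31.4%), Pb 315 (17.2%), Antp 310 (17.0%), Ubx 260 (14.2%), Scr 188 (10.3%), AbdA 149 (8.16%), and AbdB had gained the smallest share (6.29%). Of the Lab gained regions in its own list with Hth, Dfd had gained 39.4%, Pb 37%, Antp 60.8%, Ubx 42.5%, Scr 20.1%, AbdA 21.2% and AbdB 12.2%. Over that whole list, Dfd had gained 4890 of 12050 regions, Pb 955 of 5692, Antp 1051 of 2880 and Ubx 2246 of 5656. Scr had gained 924 of 6598, AbdA 1489 of 6506 and AbdB 762 of 9027.

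**Figure D3:**
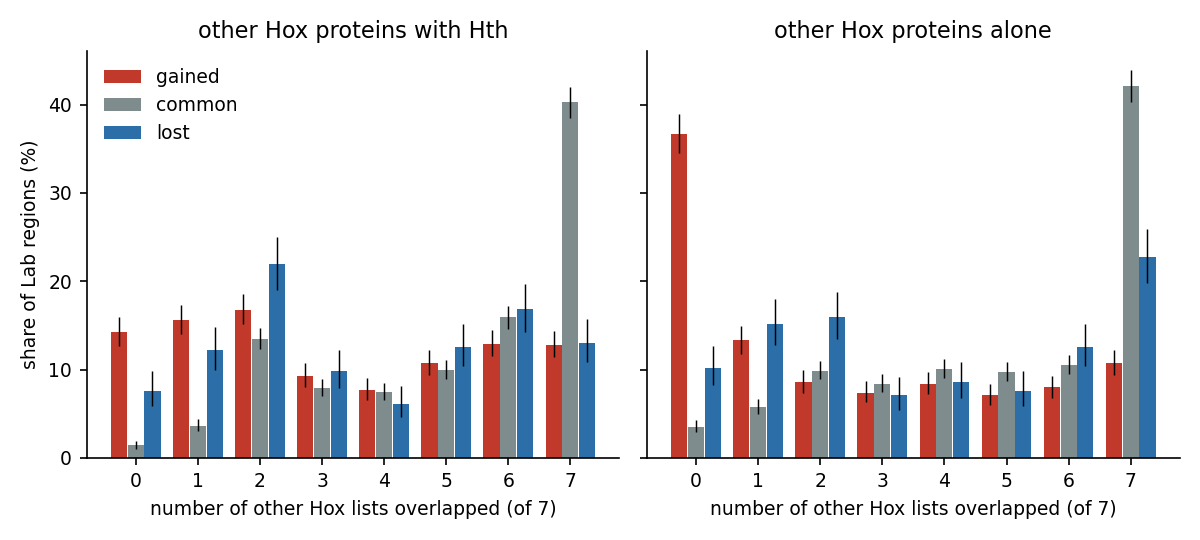
Share of gained (red), common (grey) and lost (blue) Lab regions (vertical axis, percent, with 95% Wilson intervals) by the number of the other 7 Hox lists they overlapped (horizontal axis), for lists with Hth on the left and without Hth on the right. Common regions pile up at 7 lists, 40.3% with Hth and 42.1% without, and gained regions have their highest share at 0 lists without Hth, 36.7%.

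Lab-type sites were concentrated in gained regions. In the central 200 bp, TGATGGAT or TGATTGAT was found in 360 of 1827 gained regions (19.7%, 17.9 to 21.6), in 3.94% (3.30 to 4.70) of 2995 common regions and in 8 of 722 lost regions (1.11%, 0.563 to 2.17). In windows of the same length centred 1000 bp to either side of gained regions and free of any bound region, the share was 1.69% (1.19 to 2.40), and over the centres of all merged regions of the series it was 3.92%. Gained regions in the Lab+Hth list at q 1e-10 had a site in 29.3% (25.6 to 33.3) of cases, and the others in 15.8% (13.9 to 17.9). Under the stricter definition of gained described above, the share was 33.3% (29.6 to 37.3) of 582 regions.

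The sites stood near the centres of gained regions. Within 50 bp of the centre there were 260 sites in 1827 gained regions, a density of 1.42 sites per kb, which compares with 0.22 per kb in common and 0.0693 per kb in lost regions. Between 350 and 400 bp from the centre the density was 0.126 per kb for gained, 0.134 per kb for common and 0.0693 per kb for lost regions. In common and in lost regions the density had no comparable peak at the centre.

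**Figure D4:**
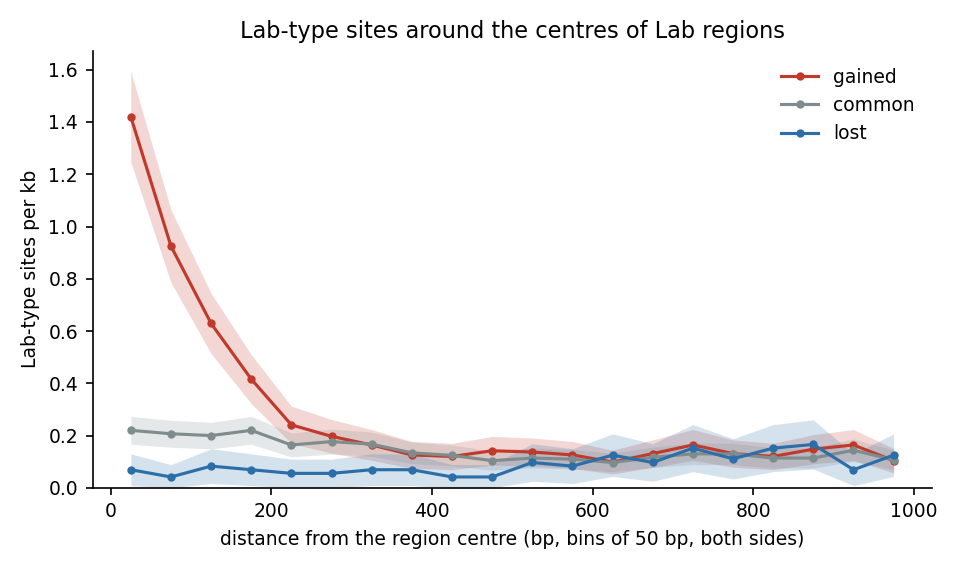
Density of Lab-type sites (vertical axis, sites per kb on both strands, bands are 95% Poisson intervals for counting only) by distance from the centre of gained (red), common (grey) and lost (blue) Lab regions (horizontal axis, bp, bins of 50 bp on both sides together). The gained line starts at 1.42 sites per kb and meets the common line, 0.164 against 0.167, at 300 to 350 bp.

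Among the 16 sequences that share the outer bases of TGATNNAT, TGATTGAT, TGATCGAT and TGATGGAT had the widest ratios of the gained to the common share. TGATTGAT was found in 15.6% (14.0 to 17.3) of gained, 2.90% of common and 0.554% of lost regions. TGATGGAT was found in 5.25% (4.32 to 6.37) of gained and 1.07% of common regions. TGATCGAT was found in 5.53% (4.57 to 6.67) of gained, 0.801% of common and 0.416% of lost regions, and in 0.863% of the merged regions. TGATAGAT was rarer, in 1.53% (1.06 to 2.21) of gained and 0.902% of common regions. TGATTAAT was found in 8.26% of gained and 3.71% of common regions and TGATTTAT in 6.08% and 3.24%. Any of the 16 was present in 45.3% (43.0 to 47.6) of gained regions, in 598 of 2995 common regions (18.6% to 21.4%) and in 11.1% (8.99 to 13.6) of lost regions, against 17.9% of the merged regions. TAATTA, a sequence bound by many homeodomains, ran the other way, with 22.2% (20.4 to 24.2) of gained, 25.3% (23.8 to 26.9) of common and 30.1% (26.8 to 33.5) of lost regions, and 19.9% of the merged regions.

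Gained regions with a Lab-type site differed from gained regions without one in their overlap with other lists. Hth overlapped 11.4% (8.51 to 15.1) of the 360 gained regions with a site and 33.2% (30.8 to 35.6) of the 1467 without. Exd+Hth overlapped 45.6% (40.5 to 50.7) of those with and 66.8% (64.4 to 69.2) of those without. At least 1 other Hox protein alone overlapped 34.2% (29.5 to 39.2) of those with and 70.5% (68.1 to 72.8) of those without. The difference was found for all 7 Hox+Hth lists and was widest for Scr+Hth, with 28.1% and 56.8%. Regions with a site were also centred less often within 1 kb of a start site, with 22.2% (18.2 to 26.8) against 36.2% (33.8 to 38.7). Common regions differed in the same direction, so the contrast was not confined to gained regions. In common regions with and without a site, Hth overlapped 33.9% and 55.7%, and Exd+Hth 63.6% and 78.9%. At least 1 other Hox protein alone overlapped 81.4% and 97.1% of them, and Scr+Hth 54.2% and 77.1%. Within 1 kb of a start site were 28% and 41.7%. Seen from the lists, a site was found in 104 of 260 gained regions (34.2% to 46.1%) in none of the other Hox+Hth lists, and the share was 23.9% (21 to 27.1) in those with 1 to 3, 9.08% (6.99 to 11.7) in those with 4 to 6 and 9.40% (6.29 to 13.8) in those with 7. It was 42.5% (35.6 to 49.8) among the 181 gained regions in no other list at all. The share was lower in common regions in each of these groups, with 11.9% (5.19 to 25.0), 6.82%, 3.10% and 2.57%.

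Other proteins gained regions with Lab-type sites too, but at lower shares. The share of gained regions with a site was 11.0% for Pb, 9.99% for Antp, 5.64% for AbdB, 5.24% for Dfd, 4.65% for Scr, 3.90% for AbdA and 2.09% for Ubx. The gained share minus the common share was 15.8 points for Lab and averaged 4.20 ± 2.94 points for the other 7 proteins (SD, n = 7), with a range of 0.714 to 8.61. Lab had the highest value of the 8, and the difference of 11.6 points gave the smallest p this design allows (exact permutation test of which 1 of 8 is Lab, two-sided, p = 0.13 and adjusted p = 0.156), so the design could not reach 0.05. Over all 8 proteins, the share with TGATGGAT was higher in gained than in common regions by 1.2 ± 1.31 points (SD, n = 8), in 8 of 8 proteins (two-sided exact permutation of the signs, p = 0.00781 and adjusted p = 0.013). Without Lab the mean was 0.773 points. For TGATGGAT, the gained minus common share was 4.19 points for Lab and between 0.0955 and 1.63 points for the others. The call was lost when whole regions were searched, with a difference of 0.157 points (exact permutation of the signs, p = 0.891).

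**Figure D5:**
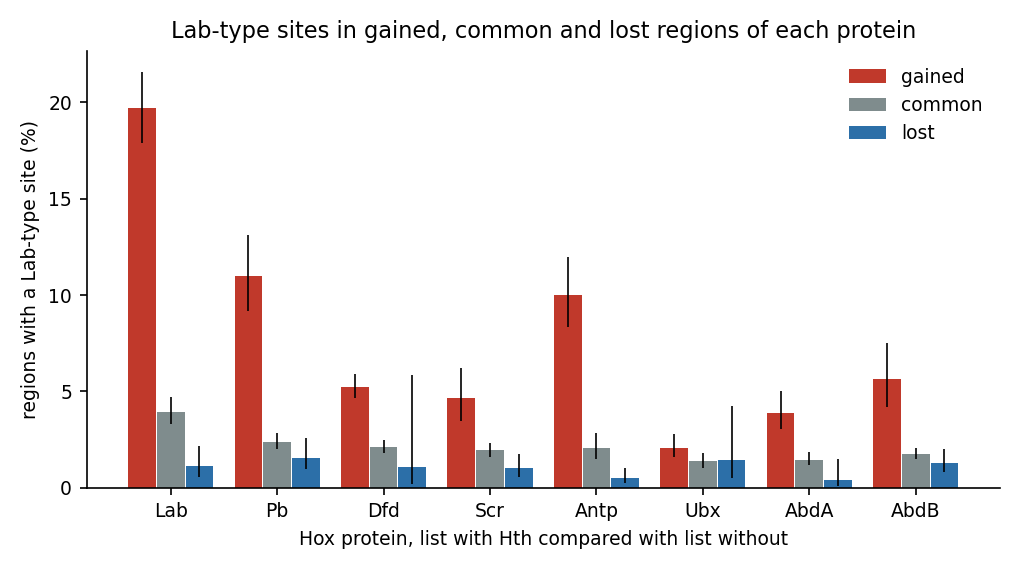
Share of gained (red), common (grey) and lost (blue) regions with a Lab-type site in the central 200 bp (vertical axis, percent, with 95% Wilson intervals) for each Hox protein (horizontal axis). The gained bar of Lab, 19.7%, is the highest, followed by Pb with 11.0% and Antp with 9.99%, and Ubx has the lowest, 2.09%.

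The Hth site TGACAG was also found in a larger share of gained than of common regions, and not more often beside a Lab-type site. It was found in the central 200 bp of 15.3% (13.7 to 17.1) of gained, 7.95% (7.03 to 8.97) of common and 5.82% (4.33 to 7.77) of lost regions, against 11.6% of the merged regions and 7.20% of the windows beside gained regions. Gained regions with a Lab-type site had TGACAG in 11.7% (8.75 to 15.4) of cases and those without one in 16.2% (14.4 to 18.2). A TGACAG within 50 bp of the Lab-type site was found for 7.22% (4.98 to 10.4) of the gained and 5.93% (2.90 to 11.7) of the common regions with such a site. Over the 8 proteins, the share with TGACAG was higher in gained than in common regions by 4.64 ± 1.60 points (SD, n = 8), in 8 of 8 proteins (two-sided exact permutation of the signs, p = 0.00781 and adjusted p = 0.013). Lab had the highest difference, 7.38 points. With whole regions in place of the central 200 bp the direction was turned, to -0.714 points (exact permutation of the signs, p = 0.727). Common regions of Lab were wider than gained ones, and the part of width in this reversal was not tested.

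Genes were then assigned to regions within 1 kb of the gene body. Of 13945 protein-coding genes, 2616 (18.8%) had a Lab+Hth region and 2383 (17.1%) a Lab region. A gained region was found at 1270 genes (9.11%) and a lost region at 749 (5.37%). With Hth, 632 genes (4.53%) had a Lab+Hth region and no Lab region, and 399 (2.86%) had a Lab region and no Lab+Hth region. Most of the lists below hold long genes, with room for more regions, so their counts are given as values beside these shares and not as a difference from them, and a region can be counted at 2 overlapping genes. Counted gene by gene, there were 5378 Lab+Hth regions and 4394 Lab regions over all protein-coding genes, and 1954 of the 5378 were gained.

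Among the 8 Hox genes, 4 had a Lab+Hth region and 4 a Lab region. Dfd, which acts in the posterior head, had 4 Lab+Hth and 3 Lab regions, with 2 gained and 1 lost. Antp, which specifies the thorax, had 2 Lab+Hth regions, 1 of them gained, and 1 Lab region, and Ubx had 1 common region. Abd-B, the most posterior gene, had 2 Lab+Hth and 3 Lab regions, with 1 lost and none gained. No region was listed at lab, pb, Scr or abd-A in either condition. At lab and hth, regions over the exons carried by the plasmids had been removed by the authors. Of the TALE cofactor genes, hth itself had 4 Lab+Hth and 3 Lab regions, with 2 gained and 1 lost, and exd, achi and vis had none. None of the gained regions at these 12 genes, 3 at Hox genes and 2 at hth, had a Lab-type site. Over all gained regions the share was 19.7%, and these regions are too few to compare with it. The 6 metallothionein genes, genes of the kind whose promoter drove the plasmids, had no Lab region in either condition.

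Of 18 genes of the midgut and copper cells, where Lab is needed, 11 had a Lab+Hth region, 11 had a Lab region and 7 had a gained region, with 42 regions with Hth and 29 without. tkv, the type I receptor for the BMP ligand Dpp, had 19 Lab+Hth and 12 Lab regions, with 8 gained and none lost, and 2 of the gained ones had a Lab-type site. dpp, which encodes that ligand and is needed for lab expression in the midgut, had 3 Lab+Hth regions, 2 of them gained, and 1 Lab region. dve, a homeobox gene of the midgut, had 3 Lab+Hth and 2 Lab regions, with 2 gained and 1 lost, as did CG34347. In the BMP list, which shares dpp and tkv, 6 of 16 genes had a gained region, with 42 regions with Hth and 28 without. shn, a zinc finger cofactor of the pathway, had 13 Lab+Hth and 10 Lab regions, with 3 gained, and Dad, an inhibitor of the pathway, had 3 and 1, with 2 gained. Of 19 head and brain patterning genes, 3 had a Lab+Hth region and 3 a Lab region. Only cnc, a bZIP gene of the anterior head, had a gained region in that list, with 15 Lab+Hth regions, 5 of them gained, and 12 Lab regions.

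Of 21 neuronal function genes, 8 had a Lab+Hth region and 3 a Lab region, 7 had a gained region, and there were 15 regions with Hth and 5 without. Without ChAT and VAChT, which share a locus, there were 9 regions with Hth and 5 without. ChAT (3R 18705501 to 18732344), the choline acetyltransferase gene, had 5 Lab+Hth regions, all gained, and no Lab region. Of these 5, 3 were in the Lab+Hth list at q 1e-10, 4 overlapped no other Hox list of either kind, and the other one overlapped 5 Hox+Hth lists. One of the 5 also lay at VAChT, the vesicular acetylcholine transporter gene nested in the same locus, and it alone had a Lab-type site. Rdl, a GABA receptor gene, and brp, the gene of an active zone protein, had 1 gained and no Lab region each. Of 20 axon guidance genes, 7 had a Lab+Hth region, 7 a Lab region and 5 a gained region. Sema1a, a semaphorin gene, had 14 Lab+Hth and 9 Lab regions, with 6 gained. The netrin receptor genes unc-5 and fra had 6 and 10 Lab+Hth regions and 3 and 7 Lab regions, with 3 and 2 gained. Dscam1, which encodes a cell adhesion protein, had 4 in each condition, with 1 gained.

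Of 20 EGFR and FGF pathway genes, 15 had a Lab+Hth region, 13 had a Lab region and 10 had a gained region, with 69 regions with Hth and 49 without. pnt, the ETS factor downstream of the pathway, had 22 Lab+Hth and 16 Lab regions, with 7 gained and none lost. pyr, an FGF ligand, had 6 and 1, with 5 gained. aop, a repressor of the same target genes, had 7 and 3, with 4 gained, and the FGF ligand bnl had 6 and 5, with 3 gained and 1 lost. Of 20 Wnt pathway genes, 11 had a Lab+Hth region, 10 had a Lab region and 5 had a gained region. Besides nkd, the receptor gene fz2 had 11 Lab+Hth and 6 Lab regions, with 6 gained, fz had 4 and 3, with 1 gained, and arm, the beta-catenin gene, had 1 gained and no Lab region. Of 11 JAK-STAT genes, 7 had a Lab+Hth region, 5 a Lab region and 4 a gained region, with 30 regions with Hth and 18 without. The phosphatase gene Ptp61F had 16 Lab+Hth and 12 Lab regions, with 6 gained and 2 lost. Socs36E, an inhibitor of the pathway, had 5 and 2, with 3 gained, and the ligand gene upd3 had 3 and 2, with 1 gained. Stat92E, the transcription factor of the pathway, had 3 Lab+Hth regions, all gained, and no Lab region, and these 3 overlapped all 7 other Hox+Hth lists and 6 or 7 of the lists without Hth. Of 17 Notch pathway genes, 8 had a Lab+Hth region, 8 had a Lab region and 4 had a gained region. mam, a coactivator gene, had 11 Lab+Hth and 8 Lab regions, with 4 gained, and kuz, a protease gene, had 9 and 6, with 4 gained. The receptor gene N had 6 and 4, with 2 gained, and fng, a glycosyltransferase gene, had 1 gained and no Lab region.

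Of 19 haemocyte genes, 9 had a Lab+Hth region, 8 had a Lab region and 6 had a gained region, with 37 regions with Hth and 30 without. ush, a cofactor of GATA factors, had 19 Lab+Hth and 15 Lab regions, with 7 gained and 2 lost, and 4 of the gained ones had a Lab-type site. vkg, a collagen IV gene, had 6 and 4, with 2 gained. Pvr, a receptor tyrosine kinase gene, had 3 in each condition, with 1 gained and 1 lost, and Pxn, a peroxidasin gene, had 1 gained and no Lab region. Of 16 ecdysone response genes, 13 had a Lab+Hth region, 14 had a Lab region, 7 had a gained region and 8 a lost region, with 52 regions with Hth and 47 without. EcR, the ecdysone receptor gene, had 13 Lab+Hth and 7 Lab regions, with 6 gained. ImpL2, which encodes an insulin-binding protein, had 7 and 5, with 3 gained, and all 3 had a Lab-type site. Eip75B, a nuclear receptor gene, had 8 in each condition, with 2 gained and 2 lost, and E23, an ABC transporter gene, had 1 in each, with 1 gained and 1 lost.

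Of the 6 regions named from those listed for Lab+Hth alone, the 2 not shown above lay on arm 2R. One was centred over a noncoding exon 10475 bp from the nearest protein-coding start site, that of Atf-2, a bZIP factor gene, and was 1055 bp wide (24859106 to 24860160). The other lay in an intron of CG12912 and was 508 bp wide (10230251 to 10230758). Each had 1 Lab-type site in the central 200 bp.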

How the data were processed

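The study's methods and the processing notes of the submitters say that reads of 2 Lab+Hth and 2 Lab libraries (of 36 ChIP and 18 input libraries) were aligned by the authors with Bowtie 1.2.2 (dm6, 1 match per read). MACS2 2.1.1.20160309 then called peaks for each replicate at q 0.01 and at q 1e-10. Regions over plasmid exons were removed, and overlapping regions present in both replicates were joined. The deposited columns are positions in bp, and the score is 0 throughout. Exd+Hth at q 1e-10 was not used here.

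Overlaps, widths, centres, genes (Ensembl release 115, 18164 genes without transposable elements, 13945 protein-coding) and motif matches in 200 bp centre windows were computed with Python 3.11.15, numpy 2.4.6 and scipy 1.17.1, on the RefSeq Release 6 genome, whose arms no region exceeded. Groups came from the labels. The 215 entries of 14 gene lists were matched, 4 through a synonym. Regions were given the protein-coding gene over their centre, or else that of the closest start site. The 5 tests over 8 proteins were adjusted by Benjamini-Hochberg and called below 0.05. Genes named were all Hox and TALE cofactor genes and up to 4 per other list with most gained regions, ties by symbol. Regions named were the 3 longest of each class and 6 of Lab+Hth alone with most Lab-type sites, ties by width. No candidate had more than 1 site in its window, so these 6 were the widest of those with a site. An item named by these rules is not reported here. nkd, ChAT and Stat92E, whose 3 or more Lab+Hth regions were all gained, were singled out after their values were seen. Members, lists and sequences were chosen with earlier results of these data known. Functions were tested on simulated data. Other thresholds, overlaps, windows and distances were tried as alternatives.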

Additional observations from a re-analysis of the deposited data

Results flagged for a closer look

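For 12 measures, the gained minus common share (or the ratio of list lengths) of each of the 8 proteins was searched for a protein far from the others by Dixon's criterion. Chance marks about 1 in 20 such sets, and the proteins are not replicates. Lab was marked for 2 measures. For TGATGGAT, Lab had 4.19 percentage points, against 1.63 for Antp, the next highest. For TGATCGAT, Lab had 4.73 points, against 0.84 for Antp, the next highest, and 0.0169 for Pb, the lowest. TGATCGAT was found in 101 of 1827 Lab gained regions (5.53%) and in 0.524% to 1.33% of the gained regions of the other proteins, and this site was chosen after its values were seen. For TGATGGAT and TGATTGAT together, Lab had the highest value but was not marked.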

How the results depend on the processing

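Alternatives were tried 1 at a time. With the q 1e-10 lists of Lab+Hth and Lab, the other lists staying at q 0.01, 998 regions were gained, 354 lost and 1325 common, and of the gained ones 32.8% overlapped Hth, 67% overlapped Exd+Hth, 29.4% were in no other Hox list without Hth, 8.82% were in none of the other Hox+Hth lists, 25.5% had a Lab-type site and 26.5% were within 1 kb of a start site. Under the strict definition, 582 were gained, 52 lost and 1741 common, and of the gained ones 21.8% overlapped Hth, 44.5% were in no other Hox list without Hth, 33.3% had a Lab-type site and 18.2% were near a start site. An overlap of 50% of the smaller region gave 59.9% of gained regions with Exd+Hth. The share with a Lab-type site was 11.9% in 100 bp windows, 27.8% in 400 bp windows and 29.3% over whole regions. The share near a start site was 27.1% with protein-coding genes alone, 22.9% within 500 bp and 51.6% within 2000 bp. With whole regions, the TGACAG difference over the 8 proteins was reversed, to -0.714 points, and the TGATGGAT difference, 0.157 points, was no longer called. The start-site difference over the 8 proteins was -6.57 points with the q 1e-10 lists, and the TGATGGAT difference was 0.773 points without Lab (exact permutation p = 0.00781 for the first and p = 0.0156 for the second). The number of genes with a gained region was 2262 within 5 kb. Of 69 alternatives, 43 left the result within its counting interval, within 1.5 times its count, or on the same side of the threshold, among them leaving out Dfd, leaving out Lab and leaving out regions near lab, hth, exd and MtnA. No paired analysis was possible because each list combines both replicates of its group. Depth is not in the lists, and its part in the numbers of regions was not tested.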

Other observations

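Some genes had fewer Lab regions with Hth than without it, and 2 of them were chosen here after their values were seen. sli, which encodes the axon repellent Slit, had 3 Lab+Hth and 8 Lab regions, with 5 lost and none gained. At q 1e-10 it had 2 Lab+Hth and 6 Lab regions. fz3, a Wnt receptor gene, had 2 Lab regions, both lost, and no Lab+Hth region.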
